A study of Mus musculus with 28 samples.

Results

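The genes described here are the Th2 cytokine cluster of mouse chromosome 11 and its regulators: the cytokine genes Il4, Il13 and Il5, the DNA repair gene Rad50 that lies among them, and the transcription factor genes Gata3 (chromosome 2) and Maf (chromosome 8). They are 6 of the 23222 gene symbols in the deposited expression files. They were picked by name and not by a rule on measured values, but with earlier results of these data known. For a symbol with several transcript rows, the row with the highest mean RPKM was taken. RPKM is the number of reads per kilobase of transcript, scaled to the size of the library, so levels of different genes can be compared on it.

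The cells were CD4+ T cells from the spleens of C57BL/6 mice of wild-type genotype. All 9 cultures had first been activated for 3 days with anti-CD3 and anti-CD28 and rested overnight. The control then received no cytokine, and the others received IL-2 or IL-21 and were collected after 0.5, 2, 4 or 24 h. Each condition is 1 library, and the control has 1 time only, so time in culture and cytokine cannot be told apart in a comparison with control. The sources used here give neither the age of the mice nor the cytokine doses of these RNA cultures, and the 19 chromatin samples of the 28 in the series are not analysed here. The labels name no IL-4 treatment, so the cells are activated CD4+ T cells and not a labelled Th2 culture.

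IL-4, IL-5 and IL-13 are the signature cytokines of T helper 2 (Th2) cells, which act against worms and drive allergic inflammation. Their genes share a locus whose control region lies inside the Rad50 gene, and GATA3, the master regulator of the Th2 fate, binds across it. c-MAF, the product of Maf, drives Il4 transcription. STAT6, downstream of the IL-4 receptor, raises Gata3, and STAT5, downstream of IL-2, is needed to make the Il4 locus accessible. IL-2 and IL-21 both signal through receptors with the common gamma chain, IL-2 mainly by STAT5 and IL-21 mainly by STAT3.

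Library totals ran from 29.5 to 44.3 M reads. At these depths 3 reads, the floor used for a gene without reads, corresponded to 0.0442 to 0.0663 RPKM for Il5. The defining CD4 T cell genes were present in every library: Cd3e lay between 144 and 209 RPKM and Cd4 between 112 and 208 RPKM. Other cells can also make IL-4, IL-5 and IL-13, so their markers were read too. The 11 mast cell and basophil markers summed to 0.5 to 2.1 RPKM, with 1.9 in control. Of these, Prss34, Ms4a2, Gata2, Cd200r3 and Tpsb2 had no library above 0.1 RPKM, and Mcpt8 was at 0 in 3 libraries. Fcer1a was at 0 in control and at 0.129 RPKM with IL-21 at 24 h. Kit, Hdc, Cpa3 and Cma1 had reads in every library, with 1.13, 0.318, 0.220 and 0.0541 RPKM in control. The 5 eosinophil markers summed to at most 0.4 RPKM, and Epx, the eosinophil peroxidase gene, had no read in any library. The 3 markers of natural killer T (NKT) and innate-like T cells summed to 1.2 to 3.6 RPKM, with 2.5 in control. The part of such cells in the cytokine RNA was not tested.

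The sequences before the start of the 3 cytokine genes are shown because these genes were the ones that differed most between the cytokines. They come from RefSeq on build GRCm38.p6 and cover the 250 bases before the annotated start, 5′ to 3′ on the strand of the gene. Il4 is at chr11:53618666-53618915 on the minus strand, Il13 at chr11:53634703-53634952 on the minus strand and Il5 at chr11:53720544-53720793 on the plus strand. Capitals mark matches to the letters of GATA, STAT or MAF sites on either strand.
Il4: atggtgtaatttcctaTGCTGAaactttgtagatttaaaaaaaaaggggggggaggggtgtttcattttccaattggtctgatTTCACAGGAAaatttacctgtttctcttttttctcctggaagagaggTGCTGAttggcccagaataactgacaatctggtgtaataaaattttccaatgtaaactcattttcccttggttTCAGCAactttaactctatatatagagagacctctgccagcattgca
Il13: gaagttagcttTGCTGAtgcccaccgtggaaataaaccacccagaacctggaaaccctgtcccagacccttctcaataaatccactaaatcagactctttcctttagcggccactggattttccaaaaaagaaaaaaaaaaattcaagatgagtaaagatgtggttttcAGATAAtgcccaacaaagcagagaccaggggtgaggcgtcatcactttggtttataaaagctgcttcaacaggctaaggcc
Il5: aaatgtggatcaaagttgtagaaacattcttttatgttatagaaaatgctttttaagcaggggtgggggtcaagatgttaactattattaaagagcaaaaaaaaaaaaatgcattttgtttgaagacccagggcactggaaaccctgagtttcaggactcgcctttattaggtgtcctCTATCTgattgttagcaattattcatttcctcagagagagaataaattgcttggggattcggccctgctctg

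The GATA letters searched were AGATAA and AGATAG, and also both with T as the first base, and 26.5% of the 32851 promoters of the same length in the table held at least 1 of them. Il13 had AGATAA from base -81 to -76 before the start, and Il5 had AGATAG on the opposite strand from -72 to -67. The Il4 sequence printed above held no GATA letters. Its second RefSeq start site, with its promoter at chr11:53617339-53617588, held TGATAG from -80 to -75. The letters TGCTGA of the MAF recognition element were present in 16.1% of all promoters. They occurred 3 times before Il4, at -234 and -120 on the gene's strand and at -47 on the other, 1 time before Il13 at -239 and not before Il5. STAT letters, TTC and GAA around a spacer of 3 or 4 bases, were present in 12.4% of promoters and in 1 of these 3, Il4, from -167 to -158 with a spacer of 4. That match overlaps a copy of GGAAA, the NFAT core, which starts at -161. GGAAA occurred 5 times before Il4, 4 times before Il13 and 2 times before Il5, and was present in 55.6% of all promoters. The AP-1 letters TGANTCA (6.75% of promoters) were absent from all of these windows. The Gata3 promoter, at chr2:9878601-9878850 on the minus strand, held TGCTGA at -90 and GGAAA 2 times. A match describes letters in these windows and is not evidence of binding. Promoters of Rad50 and Maf were not used here.

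**Figure D1:**
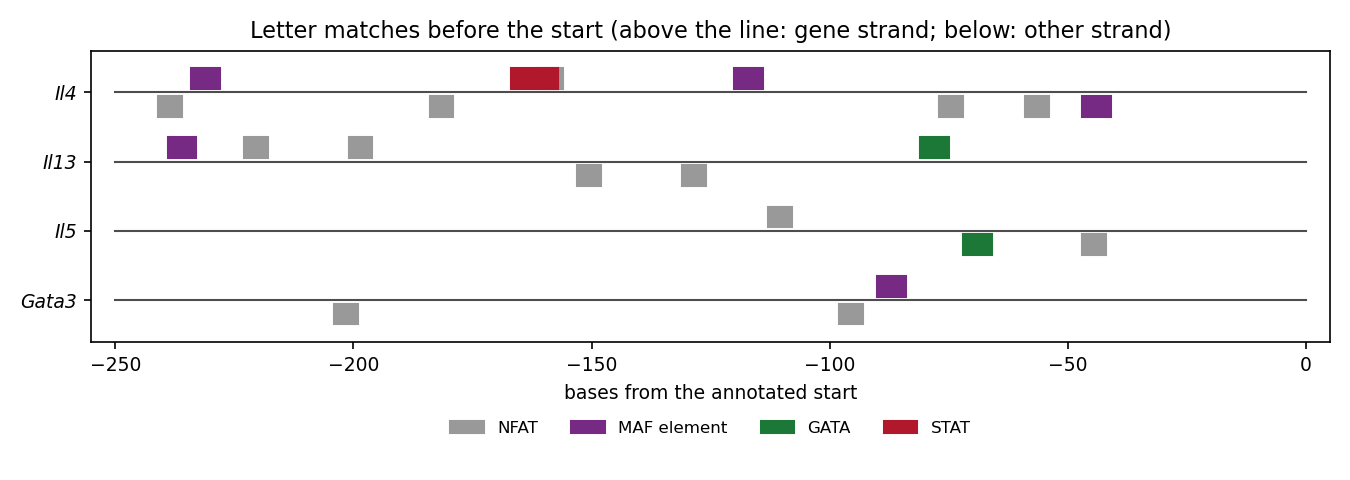
Positions of matched letters in the 250 bases before the annotated start of Il4 (first start site), Il13, Il5 and Gata3; the x axis is bases from the start, boxes above a line are on the gene's strand and boxes below on the other strand. Il4 carries 3 MAF matches and the STAT match, while the GATA matches of Il13 and Il5 lie at -81 and -72.

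Il4, the cytokine gene that both marks and promotes the Th2 fate, differed from control with IL-2 at the earliest time already. Its values are those of the transcript row with the highest mean RPKM, a non-coding RefSeq variant (NR_027491), with the protein-coding row given after them. It stood at 5.97 RPKM in control. With IL-2 it was at 19.7, 18.9, 16.3 and 18.9 RPKM at 0.5, 2, 4 and 24 h. With IL-21 it was at 7.67, 3.03, 2.37 and 3.85 RPKM at the same times. On this row the IL-2 level at 0.5 h was the highest of all, and from 2 h on the IL-21 libraries lay below control. All 4 IL-2 libraries lay above all 4 IL-21 libraries and the control.

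The ratio of Il4 to control with IL-2 was 3.29 at 0.5 h, with an exact 95% interval of 2.67 to 4.07, and lay between 2.72 and 3.29 over the 4 times. These intervals are conditional binomial ones from the 2 read counts. They cover counting error only, because without molecular identifiers a read is not an independent molecule, and 1 library per condition has no replicate check. Between 0.5 and 2 h with IL-2 the interval of the step included 1 (0.963, 0.832 to 1.11). With IL-21 the ratio to control was 1.28 (1.01 to 1.64) at 0.5 h, 0.507 (0.378 to 0.676) at 2 h, 0.397 (0.284 to 0.549) at 4 h and 0.644 (0.484 to 0.853) at 24 h. Il4 with IL-21 was thus slightly above control before it was below it.

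The protein-coding Il4 transcript (NM_021283) had a row of its own. It gave 4.38 RPKM in control, 14.8, 15.8, 14.5 and 17.6 with IL-2, and 6.42, 2.63, 1.44 and 3.7 with IL-21. Its reads were 0.589 to 0.932 times those of the non-coding row, and IL-2 exceeded IL-21 at every time on both. On the coding row the highest IL-2 level was that of 24 h and not that of 0.5 h. Its ratio to control with IL-2 was 3.39 (2.65 to 4.37), 3.6 (2.84 to 4.61), 3.31 (2.61 to 4.23) and 4.03 (3.17 to 5.16) at the 4 times. With IL-21 it was 1.47 (1.11 to 1.95), 0.6 (0.431 to 0.833), 0.330 (0.214 to 0.497) and 0.845 (0.618 to 1.16). The lower level with IL-21 at 24 h was thus not detectable on the coding row, where the interval included 1. The Il4 values that follow are again those of the non-coding row unless the coding one is named.

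Il13, whose product drives mucus and airway responses, started lower than Il4 and reached a similar level with IL-2. Control was at 2.80 RPKM. With IL-2 it was at 7.34, 22.9, 24.9 and 20.5 RPKM at the 4 times in order. With IL-21 the values were 3.28, 2.36, 2.25 and 3.98 RPKM. The IL-2 libraries lay above every other library, with the largest step between 0.5 and 2 h (3.11 times, 2.71 to 3.58).

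Against control, Il13 with IL-2 was 2.62 times as high at 0.5 h (2.10 to 3.29), 8.17 times at 2 h (6.73 to 9.99), 8.89 times at 4 h (7.35 to 10.9) and 7.31 times at 24 h (6.01 to 8.97). Its log2 difference at 4 h exceeded those of 99.9% of the 11046 genes that reached 1 RPKM in some library. With IL-21 the intervals of the ratio included 1 at 0.5, 2 and 4 h, and at 24 h the ratio was 1.42 (1.12 to 1.81). The lowest ratio of Il13 with IL-21 was 0.804 (0.612 to 1.06) at 4 h, beside 0.397 for Il4, and this difference between the genes was not tested.

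Il5, the eosinophil growth factor gene, was near its detection floor without IL-2. Control held 5 reads (0.0948 RPKM). With IL-2 there were 11, 39, 69 and 153 reads, or 0.243, 0.730, 1.11 and 3.21 RPKM. With IL-21 there were 14, 9, 8 and 8 reads, or 0.266, 0.133, 0.134 and 0.138 RPKM. The IL-2 level was higher at each later time and highest at 24 h.

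The interval of the Il5 ratio to control included 1 at 0.5 h for both cytokines: 2.56 (0.821 to 9.41) with IL-2 and 2.80 (0.954 to 9.95) with IL-21. The IL-2 ratio at that time was close to the 2.62 of Il13, so the few reads and not a smaller ratio set this interval. With IL-2 the ratio was 7.70 (3.03 to 25.0) at 2 h, 11.7 (4.79 to 37.3) at 4 h and 33.9 (14.2 to 106) at 24 h. From 4 to 24 h the step was a further 2.89 times (2.16 to 3.89). With IL-21 at 2, 4 and 24 h the intervals all included 1, so a difference from control was not detectable at this depth. On the scale of log2(RPKM + 1), used below to count genes, these low values are compressed: Il5 stood at 0.66, 0.95 and 1.94 above control at 2, 4 and 24 h.

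Rad50, which encodes a subunit of the MRE11-RAD50-NBN complex of DNA double-strand break repair, is transcribed through the part of the locus between Il13 and Il5. It stood at 17.1 RPKM in control. The IL-2 libraries held 16.9, 25.5, 28.1 and 30.4 RPKM, and the IL-21 libraries 17.6, 18.7, 17.6 and 15.3 RPKM. Rad50 with IL-2 was level with control at 0.5 h (0.986 times, 0.935 to 1.04) and 1.49, 1.64 and 1.77 times as high at 2, 4 and 24 h. With IL-21 it stayed between 0.891 and 1.09 times control. Its largest difference, 0.79 on the log2 scale with IL-2 at 24 h, did not reach 2-fold and lay above those of 84.9% of genes, so many genes differed as much or more at that time.

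**Figure D2:**
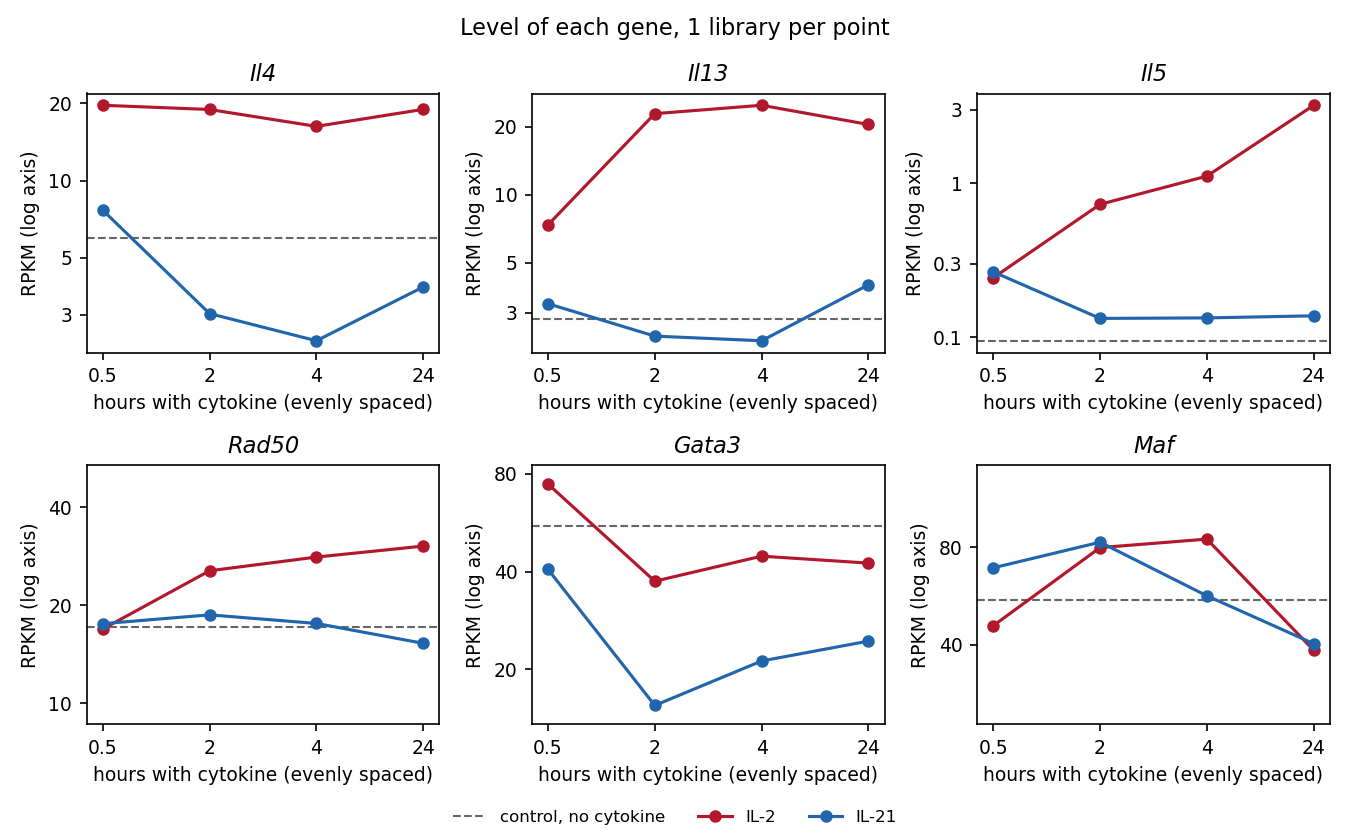
RPKM of each gene on a log axis against hours with cytokine (evenly spaced); each point is 1 library, red for IL-2, blue for IL-21, and the dashed line is the control without cytokine. Il4 is at 19.7 RPKM with IL-2 at 0.5 h already, Il13 reaches 22.9 at 2 h, and Il5 is highest, at 3.21, at 24 h.

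The genes around the cluster were read in their order along chromosome 11 to see whether the whole neighbourhood moved. Of 11 listed neighbours that reached 1 RPKM, 6 lie on the Il4 side (Hspa4, Zcchc10, Aff4, Uqcrq, Sept8 and Kif3a) and 5 on the Il5 side (Irf1, Slc22a5, Pdlim4, P4ha2 and Csf2). With IL-2 their median log2 difference from control was 0.04, 0.05, 0.39 and 0.83 at the 4 times, beside medians of 0.02, -0.04, 0.01 and 0.05 over all genes. With IL-21 the neighbours' medians were 0.04, -0.17, -0.10 and -0.04. At 24 h with IL-2, 4 of 11 were at or over 2-fold higher: P4ha2, a collagen prolyl hydroxylase subunit (2.05), Hspa4, a heat shock protein (1.37), Uqcrq, a subunit of respiratory complex III (1.27), and Zcchc10 (1.05). At that time 16.2% of all genes differed by 2-fold or more in either direction.

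Kif3a, a kinesin motor gene and the nearest listed gene on the Il4 side, was at 4.08 RPKM in control, at 3.94, 7.28, 7.57 and 7.24 with IL-2 and at 4.23, 3.53, 3.74 and 4.05 with IL-21. Irf1, a transcription factor gene induced by interferon and the nearest on the Il5 side, went the other way. It was at 252 RPKM in control, at 296, 99.4, 63.7 and 55.2 with IL-2 and at 349, 67.3, 78.8 and 106 with IL-21. The 24 h value with IL-2 was 2.17 lower on the log2 scale. The genes that flank the cluster therefore differed from control in opposite directions with IL-2 from 2 h on. Csf2, the gene of the growth factor GM-CSF, was higher at 0.5 h with both cytokines (5.45 and 3.86 RPKM against 1.30 in control) and back to 1.15 and 1.23 RPKM at 24 h. Aff4 and Slc22a5 stayed within 0.41 of control with IL-2 on the log2 scale at all 4 times.

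**Figure D3:**
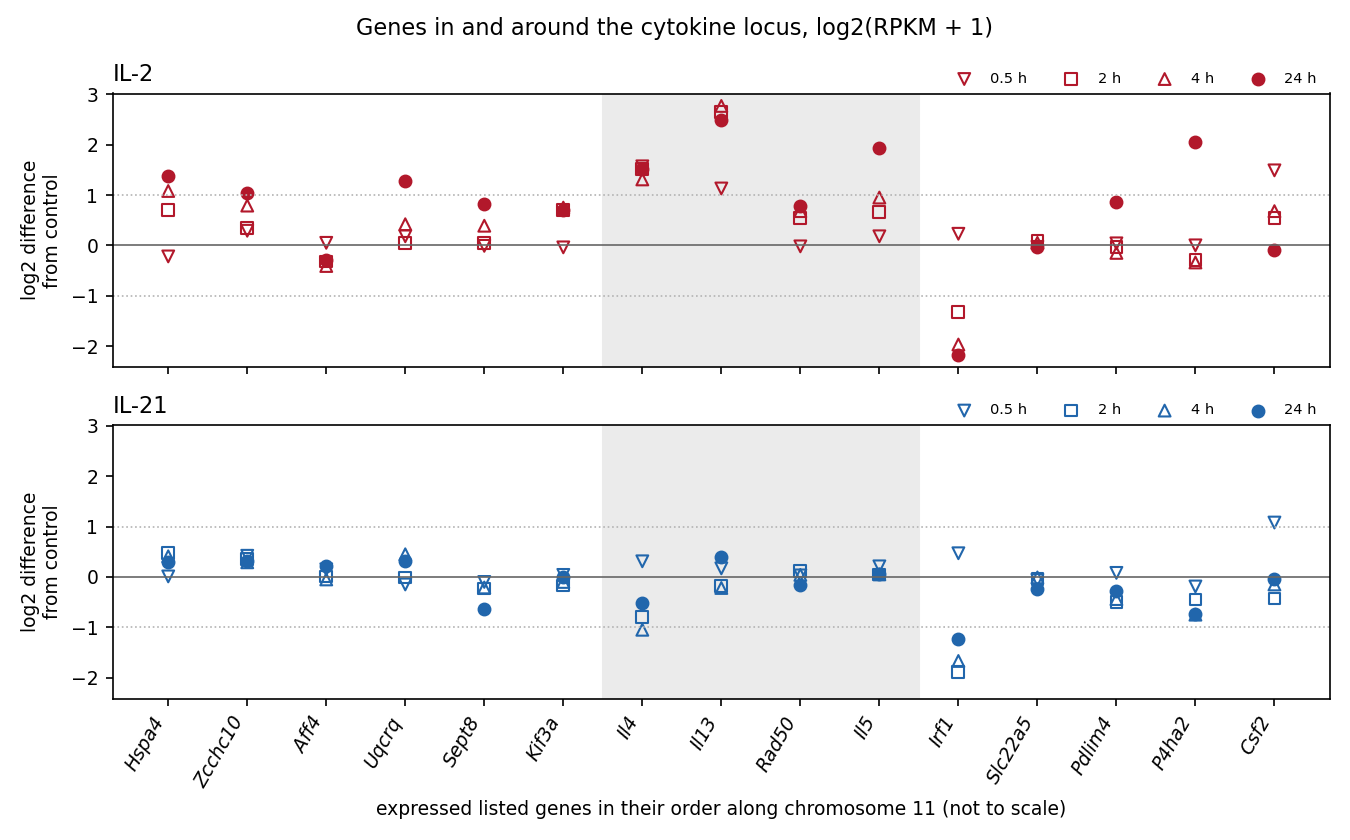
Log2 difference from control, on log2(RPKM + 1), of the listed expressed genes in their order along chromosome 11 (not to scale), with IL-2 above and IL-21 below; each symbol is 1 library at 1 time, dotted lines mark 2-fold and the grey band holds the cluster. With IL-2 at 24 h Il13, Il5 and Il4 stand at 2.5, 1.94 and 1.52 while Irf1 beside them stands at -2.17.

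Gata3 was among the most highly expressed of these genes in control, at 55.3 RPKM. With IL-2 it was at 74.3 RPKM at 0.5 h and then at 37.4, 44.6 and 42.5 RPKM. With IL-21 it was at 40.6, 15.5 and 24.5 RPKM at 0.5, 2 and 24 h, and its 4 h level, 0.384 times control, lay between the last 2 of these. Both courses had their lowest value at 2 h, and IL-2 exceeded IL-21 at 4 of 4 times. Only the IL-2 library at 0.5 h lay above control.

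Relative to control, Gata3 with IL-2 was 1.34 times as high at 0.5 h (1.30 to 1.39) and 0.675, 0.806 and 0.768 times at 2, 4 and 24 h. With IL-21 the ratios were 0.735 (0.707 to 0.764), 0.28 (0.267 to 0.294), 0.384 (0.367 to 0.402) and 0.442 (0.423 to 0.462). The log2 difference with IL-21 at 2 h, -1.77, was lower than that of all but 0.1% of genes. Gata3 and the cytokine genes thus did not move in parallel with IL-2: from 2 h on Il4, Il13 and Il5 were above control while Gata3 was below it.

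Maf was at 54.9 RPKM in control. The IL-2 libraries held 45.8, 79.7, 84.6 and 38.5 RPKM, and the IL-21 libraries 69.0, 82.8, 56.7 and 40.4 RPKM. Both courses were above control at 2 h and below it at 24 h, and the ranges of the cytokines overlapped. At 4 h Maf was above control with IL-2, while with IL-21 the interval of its ratio included 1 (1.03, 0.999 to 1.07). The ratio to control was highest at 4 h with IL-2 (1.54, 1.5 to 1.59) and at 2 h with IL-21 (1.51, 1.46 to 1.55). At 24 h it was 0.702 (0.675 to 0.729) with IL-2 and 0.735 (0.710 to 0.762) with IL-21. Between the cytokines, Maf was lower with IL-2 at 0.5 h (0.664 times, 0.641 to 0.688) and higher at 4 h (1.49 times, 1.45 to 1.54). With trimmed-mean scaling the log2 difference of Maf with IL-21 at 4 h changed sign, from 0.04 to -0.02.

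The balance of the regulators within a library differed between libraries. In control Gata3 and Maf stood at a ratio of 1.01. With IL-2 the ratio of Gata3 to Maf was 1.62, 0.469, 0.527 and 1.10 at the 4 times. With IL-21 it was 0.589, 0.187, 0.375 and 0.606. It was lower with IL-21 than with IL-2 at each time, and lowest with both at 2 h. Ratios within a library do not depend on how libraries are scaled.

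The balance of the cytokine genes differed too. The ratio of Il13 to Il4 was 0.469 in control and 0.374, 1.21, 1.53 and 1.08 with IL-2. With IL-21 it was 0.428, 0.779, 0.948 and 1.04, where Il4 was below control at 2 and 4 h and the interval of Il13 included 1. The ratio of Il13 to Il5 was 29.5 in control, between 22.4 and 31.3 with IL-2 up to 4 h, and 6.37 with IL-2 at 24 h. The order of levels in control was Gata3, Maf, Rad50, Il4, Il13 and Il5. Il5 was lowest in all 9 libraries. Il13 passed Il4 with IL-2 from 2 h on and with IL-21 at 24 h. Against the protein-coding Il4 row it did so with IL-21 at 4 h already, where the ratio of Il13 to Il4 was 1.56 in place of 0.948. With IL-21 at 2 h Rad50 (18.7 RPKM) stood above Gata3 (15.5 RPKM).

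A member passed where libraries differed at least 2-fold on log2(RPKM + 1). With IL-2 against control, 2 of 6 passed at 0.5 h, Il4 and Il13, when 0.435% of all genes did. The same members passed at 2 h (4.45% of all genes) and at 4 h (8.66%), and Il5 joined them at 24 h (16.2%), all 3 higher. With a pseudocount of 0.1 in place of 1, Il5 passed at 2 and 4 h too, both against control and against IL-21. With IL-21 against control the count was 0 at 0.5 h (0.38% of all genes), 1 at 2 h (2.89%), 2 at 4 h (2.53%) and 1 at 24 h (3.49%). Gata3 was in each of these last 3 counts and Il4 in that of 4 h, all lower. The comparisons share the control library, so their values are given side by side only.

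Between the cytokines at the same time, 1 member passed at 0.5 h, Il4 (0.507% of all genes), with Il13 at 0.96 just under the threshold. At 2 h 3 passed, Il13, Il4 and Gata3 (1.33% of all genes), and at 4 h the same 3 (3.9%). At 24 h the 3 were Il13, Il4 and Il5 (15.9%). All of these were higher with IL-2. IL-2 over IL-21, the ratio for Il13 was 2.23, 9.69, 11.1 and 5.14 at the 4 times, for Il4 2.56, 6.25, 6.85 and 4.92, for Il5 0.915, 5.51, 8.34 and 23.3, for Gata3 1.83, 2.41, 2.10 and 1.74, and for Rad50 0.962, 1.37, 1.60 and 1.99. Il13 and Il4 differed most in the middle of the course and Il5 and Rad50 at its end. With upper-quartile scaling Gata3 at 4 h was at 0.97 and did not pass.

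All 4 times were then put into edgeR's quasi-likelihood test of IL-2 against IL-21 on the read counts, with time as a factor and 3 residual degrees of freedom. The difference is thus set against its own variation between times. Of 10451 genes that averaged 1 RPKM or more, 4 were called at an adjusted p (Benjamini-Hochberg) below 0.05, or 0.0383%, and 0 of the 5 members tested were among them. Il4 differed by 2.22 (SE 0.28, log2, IL-2 minus IL-21), higher with IL-2 at 4 of 4 times, with an edgeR adjusted p of 0.1131. Il13 differed by 2.54 (SE 0.41, adjusted p 0.1528), also at 4 of 4 times. For Gata3 the difference was 0.96 (SE 0.14, adjusted p 0.1431), again at 4 of 4 times. Rad50 (0.48, SE 0.19, adjusted p 0.3289) and Maf (-0.08, SE 0.20, adjusted p 0.8515) lay within the middle 95% of genes, which ran from -0.82 to 0.76.

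Il5 was under the filter on mean level. Without a filter its difference was 2.55 (SE 0.64, edgeR adjusted p 0.2058). That fit called 19 of 17729 genes, with Il4 among them (adjusted p 0.03514). DESeq2 called Il4, Il13 and Gata3 (adjusted p 1.062e-10, 5.317e-09 and 1.873e-06) among 447 genes, and limma called 3 genes and 0 members. Without the 0.5 h libraries edgeR called 119 genes, with Il4 (2.53, adjusted p 0.01086) and Il13 (2.99, adjusted p 0.01088) among them. The calls thus depended on the tool, the filter and the times included, whereas the direction for Il4, Il13 and Gata3 was the same in all settings run.

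A second edgeR fit asked whether the courses parted with time, as the difference of straight-line slopes on log2 hours. It called 0 of 10451 genes (0%), with 2014 at an unadjusted p below 0.05, and 723 with DESeq2. Rad50 had a difference in slope of 0.18 per doubling of time (SE 0.07, edgeR adjusted p 0.2103), and Il4, Il13, Maf and Gata3 lay between -0.02 and 0.16. The ratio of IL-2 over IL-21 did not follow a straight line for Il13 (11.1 at 4 h, 5.14 at 24 h) or Il4 (6.85 and 4.92). Their small slope differences therefore do not show that the courses stayed together. Il5, in the fit without a filter, had a difference of 0.82 (SE 0.15, adjusted p 0.08908). Its slope under IL-2 alone, also without a filter, was 0.64 per doubling (SE 0.09, edgeR adjusted p 0.008371), so Il5 rose along the IL-2 course. The genes called for that slope without a filter were not counted, so no share over all genes stands beside it. With the filter, the slope under IL-2 was called for 1401 genes (13.4%) and for 0 of the 5 members tested, Rad50 coming nearest (0.14, SE 0.05, adjusted p 0.08897). Under IL-21 it was called for 0 genes (0%), with 796 at an unadjusted p below 0.05, and Il5 had a slope there of -0.17 (SE 0.11, adjusted p 0.857).

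**Figure D4:**
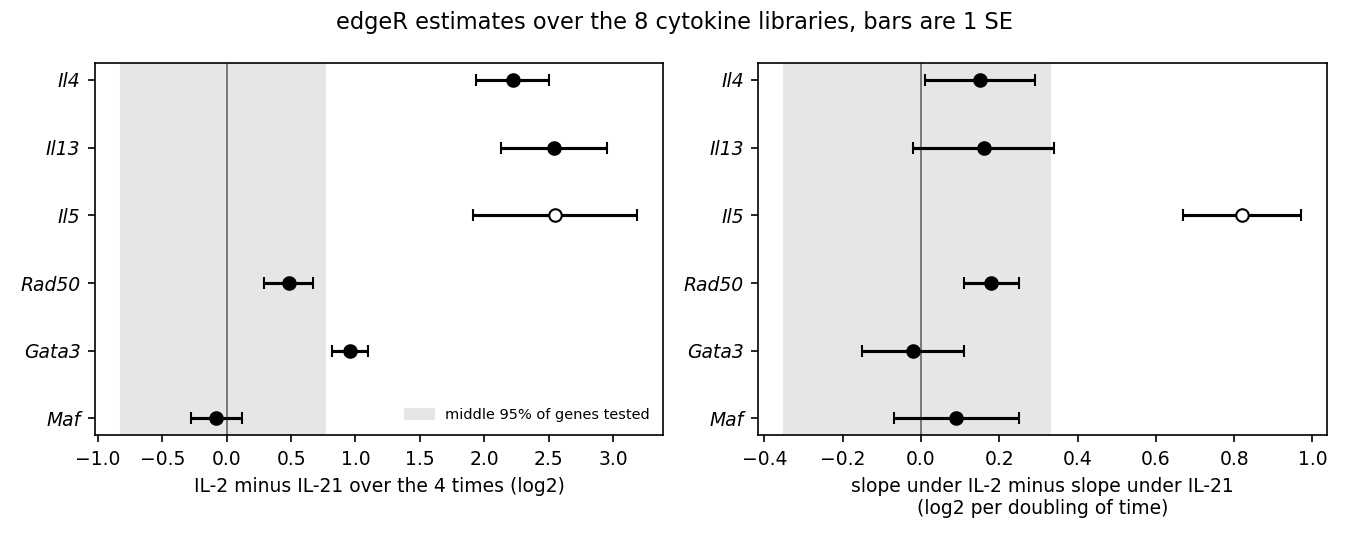
Left, edgeR log2 difference of IL-2 minus IL-21 over the 4 times; right, difference of the slopes per doubling of time. Points are estimates over 8 libraries, bars 1 SE, the open circle is Il5 from the fit without a filter, and grey holds the middle 95% of the genes tested with the filter. Il4, Il13, Gata3 and Il5 lie to the right of the grey band on the left, and Il5 alone does so on the right.

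The pathway upstream of these genes was read from gene lists. Of 14 genes of IL-4 receptor and common gamma chain signalling, 13 were expressed, and with IL-2 4, 3, 3 and 2 of them were at or over 2-fold higher at the 4 times and 0 lower. Over all genes 0.435, 4.45, 8.66 and 16.2% were at 2-fold in either direction, so the count at 24 h was near that of genes at large. With IL-21 2, 2, 1 and 1 were higher, and 1 was lower at 24 h, Cish, beside 0.38, 2.89, 2.53 and 3.49% of all genes. Those higher with IL-2 were feedback inhibitors of cytokine signalling. So were those higher with IL-21, other than the signalling factor gene Stat5a at 2 h. Socs2 was at 7.73 RPKM in control, at 20.8, 66.1, 80.7 and 132 with IL-2 and at 16.3, 16.2, 10.3 and 15.4 with IL-21. Socs1 was at 62.0 in control, at 250, 202, 195 and 162 with IL-2 and at 147, 95.3, 88.8 and 85.5 with IL-21. Socs3, the feedback inhibitor known for STAT3 signalling, was at 26.1 in control and at 330 with IL-21 at 24 h, against 44.0 with IL-2. The list's median with IL-2 was 0.08, -0.18, -0.30 and -0.28, beside 0.02, -0.04, 0.01 and 0.05 over all genes, so from 2 h on it lay below. The IL-4 receptor chain Il4ra (113 RPKM in control, 118 to 178 with IL-2, 119 to 153 with IL-21) and Stat6 (45.4, 36.7 to 44.1 and 33.3 to 42.6) did not reach 2-fold and are named for their role, after their values were seen.

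Of the 21 expressed transcription factor genes listed as promoting the Th2 fate, Gata3 and Maf left aside, 0 to 2 were at or over 2-fold higher and 0 to 3 lower in any cytokine library against control. With IL-2 the counts in both directions were 0, 5, 3 and 3, beside shares of 0.435, 4.45, 8.66 and 16.2% over all genes. Irf4, needed for Th2 differentiation, was at 87.9 RPKM in control, at 168, 117, 128 and 99.3 with IL-2 and at 125, 77.6, 41.4 and 18.5 with IL-21. Like Gata3, Irf4 was thus lower with IL-21 than with IL-2 at each time. Tcf7, which can promote early Gata3 expression and is high in resting T cells, took the other direction: its 24 h libraries held 72.8 RPKM with IL-2, 0.233 times control, and 608 with IL-21. Cebpb was higher with IL-21 at 0.5, 2 and 4 h (9.94, 14.8 and 12.7 RPKM against 4.28). Batf, a partner of IRF4, was lower with IL-2 at 2 h (41.5 RPKM against 94.1). The list's median with IL-2 without Gata3 and Maf lay between -0.12 and 0.07.

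Among 16 expressed factors that oppose the Th2 fate, 1 stood 2-fold or more higher with IL-2 at 0.5 h, Hlx (2.72 times control), and 0 later, while 0, 1, 2 and 3 were lower at the 4 times. The shares of all genes at 2-fold were 0.435, 4.45, 8.66 and 16.2%, so the counts from 2 h on were near those of genes at large. With IL-21 1, 1, 2 and 2 were higher at the 4 times, beside 0.38, 2.89, 2.53 and 3.49% of all genes, and 1 was lower, Lef1 at 2 h (35.0 RPKM against 72.6 in control). Bcl6, the follicular helper regulator, was at 4.14 RPKM in control, at 0.373 with IL-2 and 10.4 with IL-21 at 24 h. Hlx, a partner of T-bet, was at 1.42 in control and at 5.52, 12.3, 15.2 and 10.98 with IL-21. Zfpm1, whose product FOG-1 binds and restrains GATA3, was at 19.3 in control and at 7.39 with IL-2 and 10.7 with IL-21 at 24 h.

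Of 14 expressed genes for other Th2-associated effectors and receptors, 3, 2, 5 and 4 stood 2-fold or more higher with IL-2 at the 4 times and 0 lower, beside 0.435, 4.45, 8.66 and 16.2% of all genes in either direction. With IL-21 3, 2, 2 and 2 were higher, and 1 lower at 4 and at 24 h, beside 0.38, 2.89, 2.53 and 3.49% of all genes. The counts of higher genes were thus equal for the cytokines at 0.5 and 2 h, where the share over all genes was lower with IL-21. Il24, a cytokine gene of the IL-10 family, had the largest difference of the list. It was at 0.939 RPKM in control, at 11.03, 7.92, 16.4 and 31.4 with IL-2 and at 6.53, 2.25, 1.61 and 0.591 with IL-21. Ccr8, a chemokine receptor of Th2 cells, was at 22.9 in control and at 28.7 with IL-2 and 4.89 with IL-21 at 24 h. Il10, by contrast, was highest with IL-21 at 0.5 h (25.0 RPKM against 3.79 in control and 8.83 with IL-2). Il18r1, a receptor chain associated with Th1 cells as well, was at 20.3 with IL-21 at 24 h against 2.26 in control and 2.02 with IL-2. Tnfsf11, which encodes RANKL, was at 8.88 with IL-2 at 2 h against 2.27 in control.

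Partners of Rad50 were compared with it, because Rad50 is both a repair gene and a neighbour of the cytokines. Of 10 expressed genes of the MRN complex and its partners, 1 stood 2-fold or more higher with IL-2 at 24 h. That count was near the 16.2% of all genes at 2-fold in either direction. The gene was Nbn, the complex's signalling subunit (16.6 RPKM against 7.70 in control and 5.62 with IL-21). The median of the 10 at 24 h was 0.72 with IL-2, beside 0.79 for Rad50 and 0.05 for all genes, and -0.23 with IL-21, beside -0.16 for Rad50. At 2 h with IL-2 the partners' median was -0.18 and their range -0.63 to 0.36, while Rad50 was at 0.55. At 4 h the median was 0.18 and the range -0.49 to 0.60, while Rad50 was at 0.68. At 24 h the partners ran from -0.13 to 1.02, so Rad50 stood above all 10 at 2 and 4 h and within their range at 24 h. The difference between Rad50 and its partners was not tested.

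The genes with the most similar course over the 9 libraries were found by Pearson's r of log2(RPKM + 1) among 3755 genes that varied by at least 2-fold. The points share libraries and depth, so r is a description. For Il4 they were Fam46a (r = 0.98), Arl4a (0.98) and Tnf (0.97). Tnf was at 10.9 RPKM in control, at 44.8, 31.9, 31.3 and 22.4 with IL-2 and at 11.3, 4.33, 4.60 and 5.04 with IL-21. For Il13 they were Kcnk5 (0.97), Eif4e3 (0.97) and 6430571L13Rik (0.96), and for Il5 Ak4 (0.99), Eri1 (0.99) and Dna2 (0.98). Gata3 was most like Sytl1 (0.97), Dusp6 (0.93) and Filip1l (0.92). For Rad50 the nearest were Gm129, Pkp4 and 9430020K01Rik (0.98 each), and for Maf Zfp202 (0.90), Nr1d2 (0.87) and Nfat5 (0.86). No member was among the 3 nearest of another. Rad50 could not be, because it varied by less than 2-fold and was not among the genes compared. Among the members, r was highest for Il5 with Rad50 (0.90), Il13 with Rad50 (0.88) and Il13 with Il4 (0.86), was 0.76 for Gata3 with Il4, and lay between -0.24 and 0.22 for Maf with each of the others.

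Marker sums of other cells differed with time. The 9 B cell markers summed to 59.1 RPKM in control and to 26.5 with IL-2 and 11.9 with IL-21 at 24 h, and the 9 CD4 T cell markers to 2138 in control and to 1550 to 2192 in the others. The 4 NK cell markers summed to 192 RPKM in control and at 24 h to 113 with IL-2 and 520 with IL-21. That sum was nearly all Gzma, a granzyme gene that activated T cells can also express, while Ncr1, Klre1 and Klra8 were each under 1 RPKM in every library. The part of B cells or NK cells in the 24 h differences was not tested. The mast cell and basophil sum was 1.9 RPKM in control, where Kit was the highest of these markers at 1.13. It was 1.8, 1.4, 0.5 and 0.5 with IL-2 and 2.1, 1.5, 0.99 and 1.3 with IL-21 at the 4 times. The part of these cells in the cytokine RNA was not tested either. In bulk RNA, more cells that make a cytokine and more RNA in each of them cannot be told apart.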

How the data were processed

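RNA libraries were made with a stranded kit, per the labels' protocols; the submitters' processing notes name TopHat2 2.0.11, Bowtie 0.12.9, HOMER, SAMtools and the build mm9, without roles. The sources used here do not give the annotation, the counting program or its use of strand, so reads of overlapping antisense RNA cannot be told apart. Per the file headers, the authors' tables give a read count and an RPKM value for each of 29543 RefSeq transcripts. The deposited RPKM equals the deposited count divided by length and by 1 total per library, whole to within 0.01 reads.

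The members and gene lists were chosen with earlier results of these data known. Symbols of short RNAs (744) were left out. Differences between 2 libraries are log2(RPKM + 1), over 11046 genes that reach 1 RPKM in some library, called at 2-fold. The pseudocount understates changes of low genes. Tests used edgeR 4.0.16 in R 4.3.3 on the counts with TMM scaling, Benjamini-Hochberg adjustment and a threshold of 0.05. They were run on simulated data too, but with less spread between libraries than in these data. That run therefore does not measure how the tests perform here. Separate mice or cultures are not stated in the labels, so a p-value measures the spread between these libraries alone. In the test over the 4 times that spread is how the cytokine difference varied between times. In the slope fit it is the departure from a straight line. Either can hold changes with time as well as technical spread, which cannot be told apart here. DESeq2 1.42.0, limma 3.58.1, other scalings, filters, a pseudocount of 0.1, the longest transcript and leaving out each time were the alternatives.

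Named list genes are those at 2-fold from control in any cytokine library, at most 6 a list, largest first, and all expressed neighbours. Of the transcript identifiers, 28929 were found in RefSeq's table for GRCm38.p6, which gave the order of neighbours and the promoters; coordinates are of that build and not of mm9. Promoters were matched for 4 of 6 members. The values of 1 gene of these lists are not reported here.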

Additional observations from a re-analysis of the deposited data

How the results depend on the processing

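A log2 difference is called moved where a setting put it outside the counting-error interval of its value in the main setting. Of 72 log2 differences of members between 2 libraries, 0 moved with the longest transcript or without a filter, but neither setting could move any. Among the members only Il4 had another row, and the row used was already the longer one (604 bases against 585). A filter drops other genes and leaves the values of a member unchanged. Of the same 72, 12 moved with TMM scaling, 11 with upper-quartile scaling and 13 with a pseudocount of 0.1. With that pseudocount 2 members rather than 1 passed between the cytokines at 0.5 h, Il13 joining Il4. Upper-quartile scaling moved the median of all genes with IL-2 at 24 h from 0.05 to -0.11 and the share of higher genes among those at 2-fold from 59.0% to 41.0% (50.2% with TMM). That share went from 62.0% to 51.8% with IL-2 at 4 h and from 61.9% to 48.0% for IL-2 against IL-21 at 24 h, and with TMM from 47.9% to 37.6% with IL-21 at 4 h. With upper-quartile scaling Rad50 with IL-2 at 24 h against control went from 0.79 to 0.61 and Maf from -0.50 to -0.69. The protein-coding Il4 transcript, an alternative chosen after seeing the data, moved 1 difference, Il4 with IL-21 at 24 h (-0.19).

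For IL-2 against IL-21 over the 4 times, DESeq2 called 447 genes and 3 members, edgeR without a filter 19 genes and 1 member, and edgeR without time as a factor 1 gene. Leaving out 1 time gave 0 to 119 genes and 0 to 2 members, with 0 genes without the 4 h or the 24 h libraries and 119 without those of 0.5 h. Maf was then at 0.11 without the 0.5 h libraries. For the difference in slopes, DESeq2 called 723 genes and the fit without a filter 10. Leaving out 1 time gave 0 to 373. With all times the slope differences of Il13, Il4, Maf, Rad50 and Gata3 were 0.16, 0.15, 0.09, 0.18 and -0.02. Without the 0.5 h libraries they were -0.31, -0.14, -0.08, 0.12 and -0.15. Without the 24 h libraries they were 0.83, 0.52, 0.38, 0.26 and 0.09, the largest shifts being those of Il13 and Il4. In these fits 0 of the 5 members tested were called. The cause of these shifts was not tested. No paired analysis was possible because of missing replicate numbers, other than pairing by time, which the edgeR fit with time as a factor makes. Il5 is limited by depth, with 5 reads in control and 8 to 14 with IL-21.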
